A study of Mus musculus with 56 samples.

Results

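The transcripts of 10 genes that carry the insulin signal to glucose uptake in muscle were followed across 56 mouse gastrocnemius muscles: the insulin receptor gene Insr, its substrates Irs1 and Irs2, the PI 3-kinase regulatory subunit gene Pik3r1, the kinase gene Akt2, the receptor adaptor gene Grb10, the Rab GTPase-activating protein genes Tbc1d1 and Tbc1d4, and the glucose transporter genes Slc2a4 (GLUT4) and Slc2a1 (GLUT1). They were taken by name from the 15539 genes of the count table, and all 10 were among the 14321 genes that passed the filter on low counts.

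The mice were C57Bl/6 and fell into 8 groups of 7 by sex, genotype and wheel. HuR, the product of Elavl1, is an RNA-binding protein that attaches to AU-rich stretches of transcripts and can change their stability and translation. Controls were littermates homozygous for the floxed Elavl1 allele (HuR fl/fl) without Cre, and HuRm-/- mice carried the same floxed allele with Cre recombinase driven by the Mlc1f promoter, which is active in skeletal muscle fibres, so that the other cells of the muscle are expected to keep HuR. Within each sex and genotype, 7 mice were exposed to a running wheel and 7 to a locked wheel for 10 weeks, from 10 to 20 weeks of age, on a chow diet, and the labels also give an age of 5 months. Each value below comes from 1 muscle of 1 mouse, and the questions asked of it are whether the wheel, sex or the genotype label changed the transcript.

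In resting muscle most GLUT4 is held in vesicles inside the fibre. Insulin binding to its receptor recruits the IRS proteins, PI 3-kinase and Akt2, which phosphorylates TBC1D4 and TBC1D1 and so releases the Rab proteins that let the vesicles reach the surface. Contraction reaches the same end point through AMP-activated protein kinase, with TBC1D1 as a main target, and training is known to raise GLUT4 in muscle. GRB10 binds the activated receptor and dampens its signal, and its gene is imprinted.

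Total counts ran from 6639782 to 21633091 per mouse, and levels are given in CPM, the counts scaled to a normalized library total of 1e+06. With few counts a level carries more counting error: Slc2a1 had 34 to 180 counts per mouse, against 1456 to 6410 for Slc2a4. Of the 6 markers of skeletal muscle, 0 were at 0 in every mouse, and their summed level ran from 64630 to 105200 CPM. Elavl1, the targeted gene, was not lower in the mice labelled HuRm-/-: the mean of 4 differences was a log2 change of 0.13, that is 109.3% of control (95% interval 100.9 to 118.5%, limma adjusted p = 0.1499). Its lowest, median and highest levels were 42.0, 54.0 and 61.9 CPM in male controls with locked wheels and 45.4, 50.5 and 58.6 CPM in the males labelled HuRm-/- with locked wheels. In running males they were 27.8, 54.4 and 60.9 CPM in controls and 53.2, 61.3 and 69.8 CPM in those labelled HuRm-/-, at 135.2% of control (adjusted p = 0.02421). Mice with and without the label overlapped in both pairs of groups. Female controls had 38.9, 44.5 and 48.2 CPM with locked and 49.3, 51.5 and 61.3 CPM with running wheels, and the females labelled HuRm-/- had 37.9, 47.9 and 62.3 CPM with locked and 49.2, 52.8 and 62.5 CPM with running wheels. Which exon Cre removes, and whether the counted reads cover it, is not given in the sources used here, so these levels do not check the deletion, and every difference by genotype below rests on the labels. Liver markers, which muscle does not use, stood apart in 10 mice, where the 12 of them summed to more than 500 CPM, up to 3346 CPM in female control mouse 15 with a locked wheel.

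On GRCm38 the genes lie on 8 chromosomes: Insr at chr8:3122061-3279617, Irs2 at chr8:10984681-11008458, Irs1 at chr1:82233101-82291416, Pik3r1 at chr13:101680563-101768217, Akt2 at chr7:27591552-27640826, Grb10 at chr11:11930508-12038683, Tbc1d1 at chr5:64156305-64351486, Tbc1d4 at chr14:101442360-101609191, Slc2a4 at chr11:69942539-69948188 and Slc2a1 at chr4:119108711-119137983. Insr lies 1005765 bases and Irs2 6659268 bases from Elavl1, the floxed gene. Other annotated genes overlap 7 of the 10, but 0 of those overlapping genes are in the count table.

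Promoter windows (250 bases before to 50 after a transcript start, RefSeq, GRCm38.p6) were found for 8 of the 10 genes; Insr and Slc2a4 had no entry. Shown are the 2 windows of Grb10, the gene with the clearest difference by sex, and those of Irs1 and Irs2, which differed by sex in opposite directions. Capitals in the first Grb10 window mark CTA and TAG with 4 bases of any kind between them. This pattern is looser than the MEF2 site, whose middle bases are A or T, and the middle bases here are CTGG. In the other windows capitals mark GGGCGG, the GC box, on either strand, and overlapping GC boxes run together.
Grb10, chr11:12027922-12028221, minus strand: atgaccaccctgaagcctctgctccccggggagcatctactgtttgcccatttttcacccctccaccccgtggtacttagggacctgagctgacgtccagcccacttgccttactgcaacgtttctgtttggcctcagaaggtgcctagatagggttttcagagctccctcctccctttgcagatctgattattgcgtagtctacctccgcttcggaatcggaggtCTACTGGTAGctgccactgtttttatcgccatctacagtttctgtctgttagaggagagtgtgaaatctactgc
Grb10, chr11:12037371-12037670, minus strand: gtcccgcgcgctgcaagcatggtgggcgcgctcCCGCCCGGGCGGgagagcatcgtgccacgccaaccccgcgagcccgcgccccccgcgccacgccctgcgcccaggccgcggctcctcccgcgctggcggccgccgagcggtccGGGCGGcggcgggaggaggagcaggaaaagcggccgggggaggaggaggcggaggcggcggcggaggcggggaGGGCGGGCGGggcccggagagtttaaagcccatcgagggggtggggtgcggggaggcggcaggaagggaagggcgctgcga
Irs1, chr1:82291390-82291689, minus strand: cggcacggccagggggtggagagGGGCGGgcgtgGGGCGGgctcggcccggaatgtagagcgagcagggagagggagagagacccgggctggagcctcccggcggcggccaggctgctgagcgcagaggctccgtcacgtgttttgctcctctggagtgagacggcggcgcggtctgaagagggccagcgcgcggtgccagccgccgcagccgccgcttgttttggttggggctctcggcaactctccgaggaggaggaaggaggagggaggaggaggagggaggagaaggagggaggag
Irs2, chr8:11008880-11009179, minus strand: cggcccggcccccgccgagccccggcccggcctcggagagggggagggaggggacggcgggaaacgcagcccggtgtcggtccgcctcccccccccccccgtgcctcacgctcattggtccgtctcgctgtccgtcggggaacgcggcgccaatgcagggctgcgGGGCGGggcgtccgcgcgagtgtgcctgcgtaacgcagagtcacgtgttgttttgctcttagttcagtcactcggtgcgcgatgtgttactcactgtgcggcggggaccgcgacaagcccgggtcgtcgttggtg

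The 2 Grb10 windows are unlike in composition: the first is 52.3% G and C with 9 CpG pairs, the second 80% with 45, and over all 32851 promoter windows the medians are 52.7% and 7. The CTA and TAG pattern, the same on both strands, was found once in the first Grb10 window and in none of the other 13 windows of the 8 genes. Of all promoters 3.69% hold it. The GC box was found 5 times in the second Grb10 window, 2 times in that of Irs1 and once in that of Irs2, and 35.7% of all promoters hold it on either strand. The estrogen receptor site (AGGTCA and TGACC with 3 bases between them, 0.0548% of promoters on either strand) and the androgen and glucocorticoid receptor site (AGAACA and TGTTCT with 3 bases between them, 0.00913%) were in 0 of the 14 windows. The counts do not tell which promoter a transcript came from.

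Because HuR binds AU-rich stretches, the 3′ untranslated regions were read as well, on the principal transcript of each gene in GENCODE M21. The nonamer TTATTTATT was in 0 of the 10 genes, against 7.41% of 13550 genes. The shorter ATTTA was present in all 10, 1 to 8 times, and in 67.7% of genes. A longer region has more room for it. All regions but that of Slc2a4 (826 bases) exceeded the median length over all genes, 1050 bases, up to 4747 in Insr. The density of ATTTA was highest in Irs2 (3.01 per 1000 bases) and lowest in Akt2 (0.745 per 1000), against 1.83 per 1000 over all genes. The 3 genes below differed by genotype label, and the 2 sites nearest the stop codon of each are shown with ATTTA in capitals; both genes that were lower, Irs2 and Akt2, stand at the ends of that range.
Irs2, chr8:10986554-10986578, minus strand: caaatctggtATTTActggcttaca
Irs2, chr8:10985537-10985561, minus strand: taaaaaatatATTTAatggcaatgc
Akt2, chr7:27639510-27639534, plus strand: agcatgcaccATTTAttacctgctc
Akt2, chr7:27640013-27640037, plus strand: ttgttccaggATTTActagaagacg
Tbc1d1, chr5:64350170-64350194, plus strand: aataaattacATTTAtggttcctcc
Tbc1d1, chr5:64350411-64350435, plus strand: aaaggggtttATTTAaatcagatat

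Levels of the 10 genes stayed within narrow limits across the 8 groups. The highest group mean was 1.25 times the lowest for Slc2a1 and Akt2 and 1.54 times for Irs1, and Grb10 stood apart at 2.04 times. Within groups the mice of Slc2a4, Pik3r1, Insr and Grb10 lay close together, with SDs of 0.17 to 0.18 on the log2 scale, against a median of 0.31 over all genes tested. That median includes genes with few counts, and genes of similar level were not compared. Slc2a1 and Tbc1d1 were the most variable, with SDs of 0.30. Differences between mice of a group are biological and technical together, and in whole muscle fewer cells of a type and less RNA per cell cannot be told apart.

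**Figure D1:**
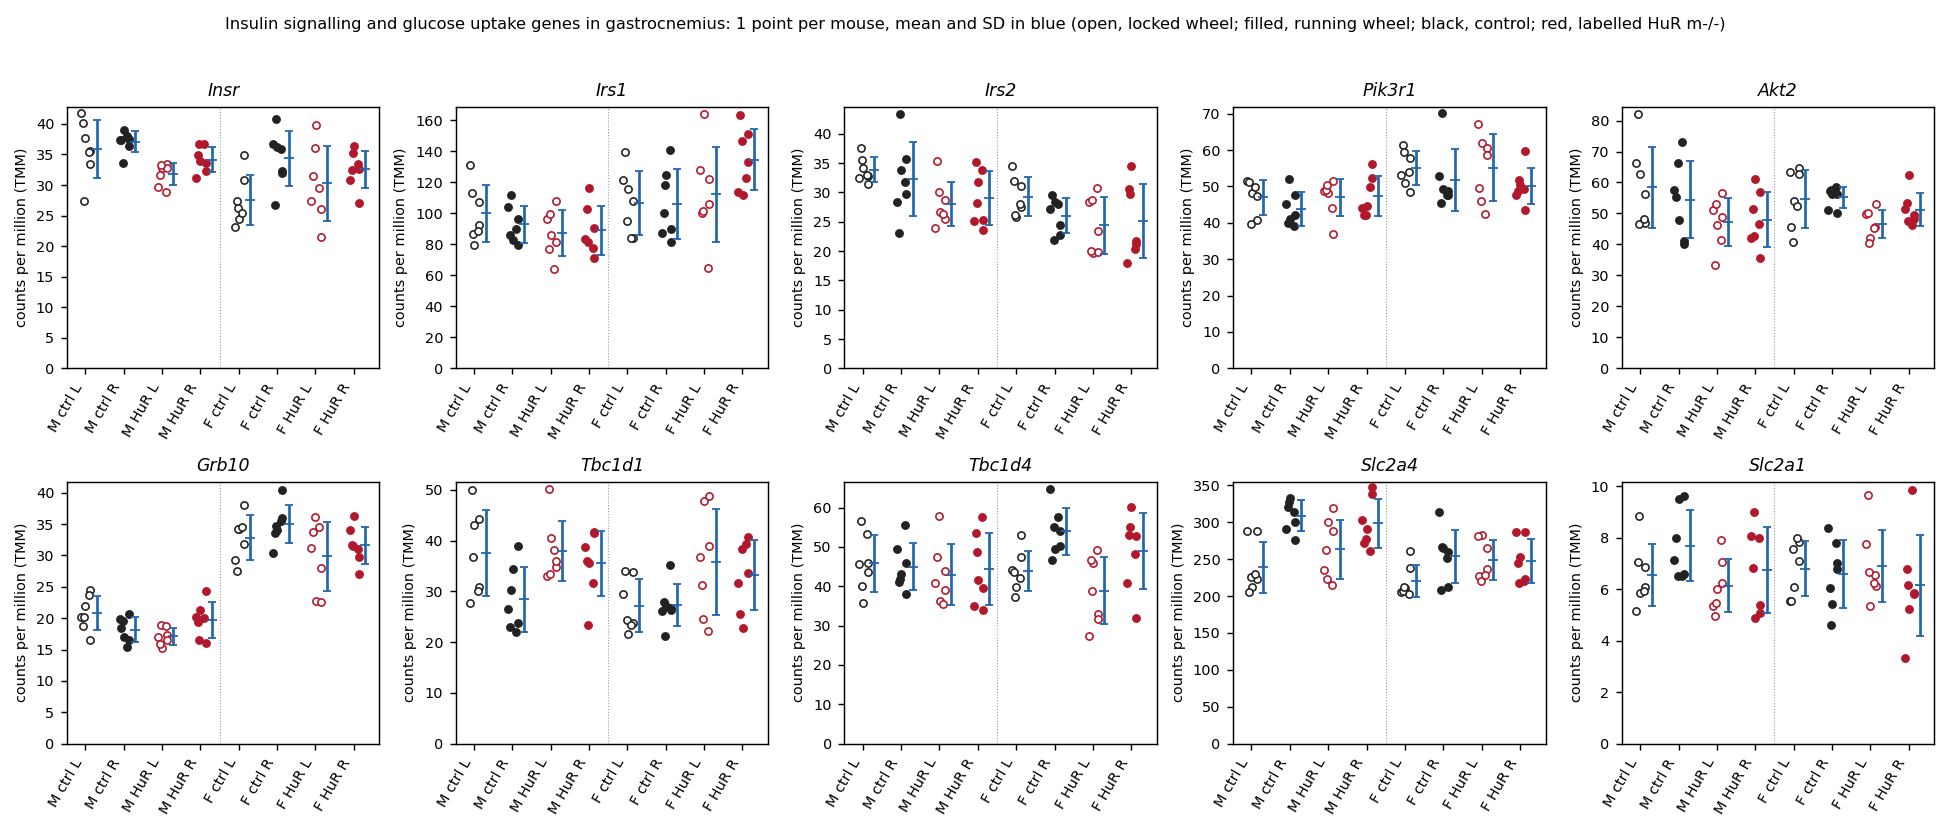
Levels of the 10 genes in CPM (vertical axes, linear and starting at 0) in the 8 groups of 7 mice (horizontal axes: M male, F female, ctrl control, HuR labelled HuRm-/-, L locked, R running wheel). Each point is 1 mouse and the blue bars are the mean and SD; Grb10 is the only gene of the 10 in which the female groups lie clear of their male counterparts, with female mice from 22.6 to 40.5 CPM and male mice from 15.3 to 24.5 CPM.

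Sex gave the largest differences. Grb10 was 1.71 times as high in females as in males, Irs1 and Pik3r1 were also higher in females, and Insr, Irs2 and Slc2a4 were lower. Counted as the mean of the 4 female minus male differences, 6 of the 10 genes passed an adjusted p of 0.05 (limma), 3 in each direction, where 33% of all genes tested did (15.8% higher, 17.1% lower in females). In the 4 comparisons behind the mean, 3 of the 10 genes were called in locked and 2 in running controls, and 1 and 2 in locked and running mice labelled HuRm-/-, where 21.5%, 7.65%, 19.3% and 5.57% of all genes were. The median size of the difference was 0.19 on the log2 scale over the 10 genes and 0.15 over all genes.

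Grb10 separated the sexes in every group. In males with locked wheels the lowest, median and highest levels were 16.5, 20.2 and 24.5 CPM in controls and 15.3, 16.97 and 18.9 CPM in mice labelled HuRm-/-; in females with locked wheels they were 27.4, 34.2 and 38.1 CPM and 22.6, 31.2 and 36.1 CPM. Running males had 15.4, 18.4 and 20.6 CPM as controls and 16.04, 20.0 and 24.4 CPM when labelled HuRm-/-, and running females 30.4, 34.7 and 40.5 CPM and 27.1, 31.5 and 36.2 CPM. In each of the 4 comparisons of 7 females with 7 males of the same label and wheel, the lowest female lay above the highest male; groups did not overlap in 6.98% of all genes for locked and 2.97% for running controls, and in 3.21% and 1.83% for locked and running mice labelled HuRm-/-. The mean log2 difference was 0.77 (SE 0.05, adjusted p = 1.422e-19, limma), the 24th smallest p of the 14321 genes, and the 4 differences behind it ran from 0.66 to 0.95. The order of the 4 female group means, and of the 4 male ones, rests on differences that did not pass the test: neither the wheel (log2 0.04, 95% interval -0.06 to 0.14) nor the label (-0.11, -0.21 to -0.01, adjusted p = 0.1481) was called for Grb10.

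The receptor and its substrates did not move together. Insr was lower in females, with 21.5, 31.7 and 40.8 CPM as lowest, median and highest of 28, against 27.4, 34.4 and 41.8 CPM in males (log2 -0.17, SE 0.05, adjusted p = 0.002434). Most of this lay in locked-wheel controls, the group in which females ran from 23.2 to 34.9 CPM (median 26.2) and males from 27.4 to 41.8 CPM (median 35.5), a log2 difference of -0.40 (SE 0.09, adjusted p = 0.001369); in the other 3 comparisons it was -0.07 to -0.13 and was not called. The difference between labels in this sex difference was not called either (log2 0.19, adjusted p = 0.6353).

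Irs1, which carries the signal from the receptor in muscle, was higher in females, with 64.5, 114.9 and 163.9 CPM against 64.3, 89.0 and 131.2 CPM in males (log2 0.30, SE 0.07, adjusted p = 5.434e-04). For Irs1, 23 of 28 females lay above the median of males of their label and wheel. Its largest sex difference was in running mice labelled HuRm-/-: females had 111.5, 132.8 and 163.6 CPM and males 71.2, 83.5 and 116.5 CPM, so that the groups overlapped at their edges (log2 0.59, SE 0.14, adjusted p = 0.003498). The other 3 differences, 0.10 to 0.33, were not called.

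Irs2, the second substrate, went the other way, with 18.04, 27.3 and 34.5 CPM in females and 23.1, 31.6 and 43.4 CPM in males (log2 -0.23, SE 0.06, adjusted p = 0.002049). Its 4 differences were alike, from -0.28 to -0.20, and none was called alone. Pik3r1, whose product holds the PI 3-kinase to the IRS proteins, was higher in females, with 42.4, 50.6 and 70.3 CPM against 36.9, 47.5 and 56.1 CPM (log2 0.19, SE 0.05, adjusted p = 9.692e-04). For Pik3r1, 25 of 28 females lay above the median of males of their label and wheel.

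Among the genes of the final steps, Slc2a4 was lower in females, with 203.0, 237.0 and 313.7 CPM against 205.0, 287.9 and 347.2 CPM in males (log2 -0.19, SE 0.05, adjusted p = 6.712e-04). It was called in running controls, where females had 207.8, 259.0 and 313.7 CPM and males 276.2, 313.7 and 333.2 CPM, groups that overlapped (log2 -0.30, adjusted p = 0.02541). In running mice labelled HuRm-/- the value was -0.27 (adjusted p = 0.05822, and under 0.05 in 13 of 56 fits without 1 mouse), and with locked wheels it was -0.12 and -0.07. Tbc1d1 was at -0.19 over all females (adjusted p = 0.06081, and under 0.05 in 14 of 56 fits without 1 mouse) and was called in locked controls alone, at -0.45 (adjusted p = 0.03706, 0.02047 to 0.1153 in fits without 1 mouse). Akt2 (0.02, 95% interval -0.11 to 0.14), Tbc1d4 (0.05, -0.08 to 0.17) and Slc2a1 (-0.04, -0.21 to 0.12) were not called.

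Markers of other cell and fibre types moved with sex. All 9 slow fibre markers were called higher in females, with group sums of 1397 to 2999 CPM in female and 940.4 to 2723 CPM in male mice, and 4 of 8 fast fibre markers (54620 to 83970 and 59680 to 86810 CPM) and 4 of 6 general skeletal muscle markers were lower. Of 10 adipocyte markers 8 were higher (281.6 to 789.4 and 209.0 to 463.5 CPM), of 8 leukocyte markers 6 (57.5 to 219.9 and 39.8 to 147.6 CPM) and of 5 erythroid markers 5 (1052 to 6392 and 746.1 to 2280 CPM); 0 markers of these lists were at 0 in every mouse. With the adipocyte markers as a covariate, 2 of the 6 genes kept their call, Grb10 and Irs1, and with the slow minus fast fibre markers again 2, Grb10 and Slc2a4. The number of all genes called fell too, from 4720 to 1457 with the adipocyte and 1899 with the fibre markers. Grb10 stayed between 0.76 and 0.82 under these and all other settings tried. The part of the other cell types in the remaining differences was not tested.

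**Figure D2:**
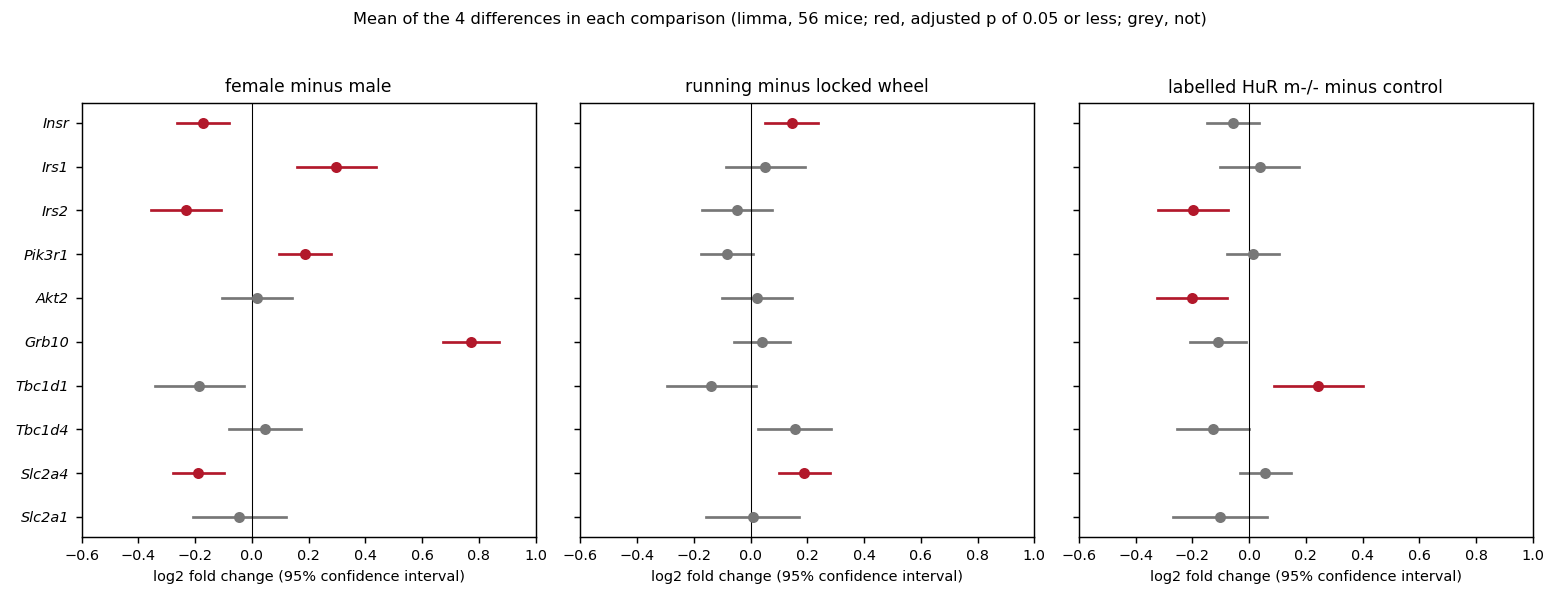
Log2 fold change (horizontal axes) of each of the 10 genes in the 3 main comparisons, each the mean of 4 differences between groups of 7 mice. Points are estimates, lines 95% confidence intervals and red marks an adjusted p of 0.05 or less (limma); Grb10 in females stands alone at 0.77, and every other difference lies between -0.23 and 0.30.

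Running raised Slc2a4 and, less firmly, Insr. Slc2a4 was 14.0% higher with a running than with a locked wheel and Insr 10.5% higher, and 0 of the 10 were called lower. These 2 of 10 genes called compare with 5.96% of all genes tested (3.42% higher, 2.54% lower), and the median log2 change was 0.03 over the 10 genes and 0.01 over all genes. Of single pairs of groups, 1 of the 10 was called in male controls and 1 in female controls, where 3.24% and 8.74% of all genes were. In males and females labelled HuRm-/- 0 were called (0.0419% and 3.85% of all genes), with 1 and 2 of the 10 at an unadjusted p under 0.05 (limma). Of the 14321 genes tested, 1821 and 2492 were under that p.

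Slc2a4 encodes the transporter that insulin and contraction bring to the surface. With locked wheels its lowest, median and highest levels were 205.0, 226.3 and 288.3 CPM in male controls, 215.5, 262.6 and 319.4 CPM in males labelled HuRm-/-, 203.0, 211.2 and 261.2 CPM in female controls and 220.8, 236.5 and 283.2 CPM in females labelled HuRm-/-. With running wheels they were 276.2, 313.7 and 333.2 CPM, 260.4, 290.2 and 347.2 CPM, 207.8, 259.0 and 313.7 CPM, and 217.5, 244.5 and 287.1 CPM in the same order. Running male controls were the highest group and barely overlapped their locked counterparts, whereas the females labelled HuRm-/- had nearly the same levels with both wheels. Libraries of running male controls also differed: Gm42418, named after its share was seen, took 6.51 to 9.78% of their counts. It took 9.41 to 11.4% in locked male controls and 11.5 to 13.1% in running female controls. The part of this in the Slc2a4 differences was not tested. Of 28 runners, 23 lay above the median of locked mice of their sex and label. The mean log2 change was 0.19 (SE 0.05, adjusted p = 0.005345). It was called in male controls (0.38, SE 0.09, adjusted p = 0.01016), was 0.19 in both males labelled HuRm-/- and female controls (adjusted p = 0.3611 and 0.1807) and was -0.01 in females labelled HuRm-/- (95% interval -0.19 to 0.17). The differences between these wheel effects were not called: that between the sexes was -0.19 (adjusted p = 0.1555) and that between the labels -0.20 (adjusted p = 0.4038).

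Insr had 21.5, 31.6 and 41.8 CPM as lowest, median and highest of the 28 locked mice and 26.7, 35.1 and 40.8 CPM in the 28 runners (log2 0.14, SE 0.05, adjusted p = 0.04556). Of 28 runners, 24 lay above the median of locked mice of their sex and label. Female controls carried the only called difference of a single pair of groups, from 23.2, 26.2 and 34.9 CPM to 26.7, 35.9 and 40.8 CPM, groups that overlapped (log2 0.31, SE 0.10, adjusted p = 0.03049, 0.01043 to 0.08701 in fits without 1 mouse). In the other 3 it was 0.05 to 0.11. The mean call lay close to the threshold and was lost in 41 of 56 fits that left out 1 mouse, with adjusted p from 0.01907 to 0.08002.

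Tbc1d4, the Akt target that holds GLUT4 vesicles back, had wheel differences of 0.30 in female controls (medians of 43.6 CPM with locked and 54.0 CPM with running wheels) and 0.32 in females labelled HuRm-/- (38.7 and 52.8 CPM), and of -0.03 and 0.04 in the males. None of these was called (adjusted p = 0.1447 in female controls and 0.1532 in females labelled HuRm-/-), nor was the difference between the sexes (0.31, adjusted p = 0.1029). Tbc1d1 gave -0.40 in male controls (adjusted p = 0.1497) and -0.10 to 0.01 elsewhere. The remaining genes had mean changes from -0.08 (Pik3r1) to 0.05 (Irs1), with 95% intervals that reach at most 0.19 above 0, and Slc2a1, with the fewest counts, had the widest (-0.16 to 0.17).

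Liver markers moved with the wheel: 4 of 12 were called lower in runners, and their sum ran from 11.8 to 3346 CPM in locked and from 6.52 to 533.3 CPM in running mice, with 0 markers at 0 in every mouse. Of 8 fast fibre markers 4 were lower and 1 higher, and 2 of 9 slow fibre markers were higher. Of 8 endothelial markers 3 were higher and 0 lower, with sums of 231.9 to 337.0 CPM in locked and 255.7 to 353.0 CPM in running mice, and their part in the result was not tested. Without the 10 mice with liver markers above 500 CPM, Slc2a4 kept its call and Insr did not (limma adjusted p = 0.1695). Among the 10 were female controls 12, 15 and 16 and males labelled HuRm-/- 8, 11 and 23, all with locked wheels. Only males labelled HuRm-/- 6 and 22 were runners. The part of this loss of mice in the changed call was not tested. With liver markers as a covariate the p of Insr was 0.09968, and Slc2a4 again kept its call. Over all genes the wheel calls also fell, from 854 to 351 without the 10 mice and 532 with the covariate.

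**Figure D3:**
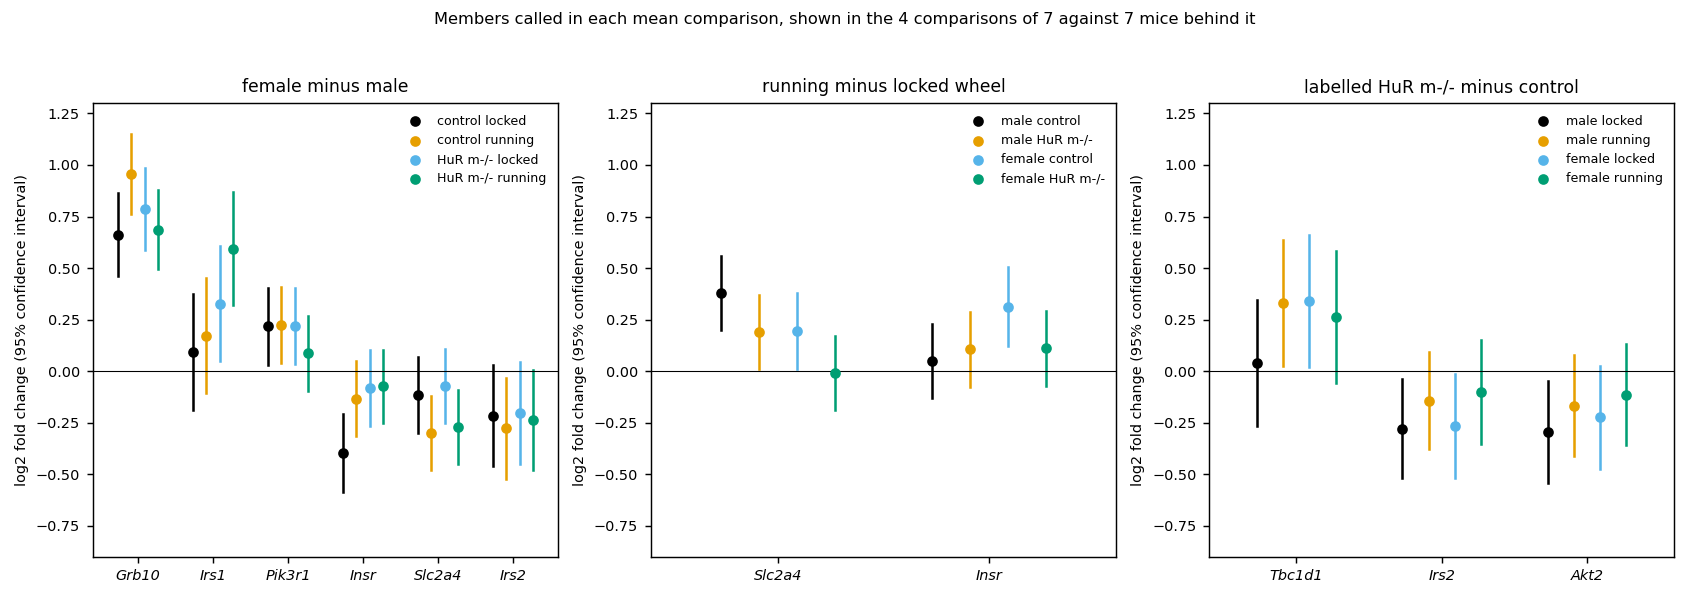
Log2 fold changes (vertical axes) of the genes called in each main comparison, shown in the 4 comparisons of 7 against 7 mice behind it; lines are 95% confidence intervals. The 4 values of Grb10 by sex lie from 0.66 to 0.95, whereas Slc2a4 by wheel runs from -0.01 in females labelled HuRm-/- to 0.38 in male controls.

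By genotype label the differences were small. In the mice labelled HuRm-/-, Akt2 and Irs2 were both at 0.87 times and Tbc1d1 at 1.18 times the level of controls, and 3 of 10 genes called compare with 11.8% of all genes (4.43% higher, 7.41% lower). Not one of the 10 genes was called in any of the 4 comparisons of 7 against 7 mice; over all genes the share called there was 1.15% in locked and 2.63% in running males, and 0.384% and 0% in locked and running females. At an unadjusted p under 0.05 (limma) there were 3 and 1 of the 10 in locked and running males and 2 and 1 in locked and running females. Of the 14321 genes tested, 2386 and 2223 were under it in the males and 2043 and 1807 in the females. edgeR and DESeq2 also called 0 of the 10 in each. The median difference was -0.08 over the 10 genes and 0.01 over all genes.

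Akt2 encodes the Akt form that insulin-stimulated glucose uptake depends on. In male controls its lowest, median and highest levels were 46.6, 56.4 and 82.1 CPM with locked and 40.0, 55.5 and 73.0 CPM with running wheels, against 33.3, 48.8 and 56.8 CPM and 35.7, 46.5 and 61.1 CPM in males labelled HuRm-/-. Female controls had 40.7, 53.9 and 64.8 CPM and 50.0, 56.3 and 58.6 CPM, and females labelled HuRm-/- 40.6, 45.6 and 52.9 CPM and 46.3, 49.5 and 62.3 CPM. All 4 groups labelled HuRm-/- had lower medians than their controls and all overlapped with them. The mean log2 difference was -0.20 (SE 0.06, adjusted p = 0.02343). Of 28 mice labelled HuRm-/-, 24 lay below the median of controls of their sex and wheel.

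Irs2 had 21.9, 30.4 and 43.4 CPM in the 28 controls and 18.04, 26.5 and 35.3 CPM in the 28 mice labelled HuRm-/- (log2 -0.20, SE 0.06, adjusted p = 0.02443), with values of -0.28 and -0.27 for locked males and females and -0.14 and -0.10 for running males and females. Tbc1d1 had 21.3, 27.8 and 50.0 CPM in controls and 22.1, 35.9 and 50.1 CPM in mice labelled HuRm-/- (log2 0.24, SE 0.08, adjusted p = 0.03012). Its ranges were nearly the same and the medians differed. The value was 0.04 in locked males and 0.26 to 0.34 in the other 3 comparisons. Of 28 mice labelled HuRm-/-, 20 lay above the median of controls of their sex and wheel.

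The transporters were not called by label. Slc2a4 was at 0.06 (95% interval -0.03 to 0.15, adjusted p = 0.4683) and Slc2a1 at -0.10 (-0.27 to 0.06, adjusted p = 0.4783). For Slc2a4 the values were 0.13 and 0.18 in locked males and females and -0.05 and -0.03 in running males and females. Irs1 was at 0.04 over all mice and at 0.36 in running females (adjusted p = 0.249), and Insr at -0.06 (-0.15 to 0.04). Slc2a1 and Tbc1d4 were called in none of the 18 comparisons made.

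Slow fibre markers moved with the label: 8 of 9 were called higher in the mice labelled HuRm-/-, with sums of 1032 to 2999 CPM against 940.4 to 2329 CPM in controls, while 0 of 8 fast fibre markers were called and 0 markers were at 0 in every mouse. With slow minus fast fibre markers as a covariate, 0 of the 3 genes kept their call (adjusted p = 0.3241 for Akt2, 0.4594 for Irs2 and 0.418 for Tbc1d1), and the number of all genes called fell from 1695 to 79. Without the 10 mice with high liver markers, 0 of the 3 were called either (0.1824, 0.1697 and 0.07479), and the number of all genes called fell to 1079.

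Interactions were tested for every gene of the 10. The wheel effect differed between the sexes in 13.7% of all genes and in 0 of the 10. For the wheel effect by label and the sex difference by label, 1 gene of all was called in each (0.00698%) and again 0 of the 10. At an unadjusted p under 0.05 (limma) there were 2 (Slc2a4 and Tbc1d4), 1 (Slc2a4) and 2 (Insr and Irs1) of the 10. Of the 14321 genes tested, 3859, 1613 and 1104 were under it. edgeR and DESeq2 called 0 of the 10 in all 3 as well. These tests do not show that a difference of any of the 10 depends on the group of mice.

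The other genes of the pathway were counted from a list of 84, of which 83 passed the filter. With running wheels 5 were higher and 0 lower (6.02% called, against 5.96% of all genes), and the median change was 0.02. The largest rises were Hk2, the hexokinase that traps glucose in muscle (0.22, SE 0.03, adjusted p = 7.242e-06), Rictor, a subunit of the mTOR complex that phosphorylates Akt (0.18), and Mef2d and Ppargc1a, regulators of Slc2a4 transcription (0.17 and 0.15); the fifth, Inppl1, a phosphatase that removes the lipid made by PI 3-kinase (0.14), was named after its value was seen. In females Hk2 went from 173.6, 194.9 and 232.4 CPM with locked to 246.9, 263.1 and 281.8 CPM with running wheels in controls and from 184.9, 211.8 and 242.8 to 261.8, 264.7 and 282.8 CPM in those labelled HuRm-/-, without overlap in either, as in 2.21% and 0.796% of all genes. In males its levels overlapped, with 269.4, 294.4 and 403.7 and 288.4, 314.2 and 365.5 CPM in controls, and its wheel effect differed between the sexes (0.29, SE 0.06, adjusted p = 0.001217).

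By sex 7 genes of the list were higher and 30 lower in females (44.6% called, against 33% of all genes), with a median difference of -0.10 against 0.00 over all genes. All 6 genes listed for Slc2a4 transcription were lower, from -0.14 (Hdac5) to -0.30 (Ppargc1a); the list holds activators and the repressors Hdac4 and Hdac5 alike. With locked wheels 6 of the 6 were called lower in controls and 5 in mice labelled HuRm-/- (medians of -0.35 and -0.39), and with running wheels 0 were (-0.04 and -0.06), whereas the sex difference of Slc2a4 was called in running controls and not with locked wheels. Of the whole list 34 and 30 (41% and 36.1%) were called by sex in locked controls and locked mice labelled HuRm-/-, and 11 and 6 (13.3% and 7.23%) in the running ones. Calls over all genes were also fewer with running wheels, at 7.65% and 5.57% against 21.5% and 19.3% with locked wheels. Slc2a3, the transporter best known from neurons, had the largest fall (log2 -1.88, SE 0.17, adjusted p = 4.629e-14), but at low levels, from 0.20 to 4.44 CPM in females and 2.72 to 8.96 CPM in males. Next came Prkag3, a subunit of AMP-activated kinase found in fast fibres (-0.53), Eif4ebp1, a brake on translation that mTOR releases (-0.50), and Sort1, which sorts GLUT4 into its vesicles (-0.46). The largest rises were Igf2 (0.46), Enpp1, an inhibitor of the insulin receptor (0.43), Foxo3 (0.30) and Prkaa1 (0.18). Enpp1 was also at low levels, from 2.49 to 7.00 CPM in females and 1.68 to 5.33 CPM in males. With the adipocyte markers as a covariate 13 of the list were called by sex, and with the slow minus fast fibre markers 17. Over all genes 1457 and 1899 were called with these covariates, against 4720 without.

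By label 5 were higher and 10 lower (18.1% called, against 11.8%), with a median of 0.00. Receptor adaptors had the largest rises, Sh2b2 (0.60, SE 0.17, limma adjusted p = 0.01273) and Grb14, a relative of Grb10 that also binds the receptor (0.38). Sh2b2 was at low levels, from 1.33 to 4.69 CPM in controls and 1.33 to 9.70 CPM in mice labelled HuRm-/-. Vamp2 and Snap23 of the machinery that fuses GLUT4 vesicles with the surface came next (0.21 and 0.17). Prkab2, a subunit of AMP-activated kinase, had the largest fall (-0.40, SE 0.06, adjusted p = 1.405e-05), from 173.1 to 337.5 CPM in controls to 102.7 to 306.7 CPM in mice labelled HuRm-/-, and Eif4ebp1 (-0.26) and Ppargc1a (-0.21) were also among the falls. With slow minus fast fibre markers as a covariate 0 of the list were called.

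The wheel effect differed between the sexes in 18 of the 83 genes (21.7%, against 13.7% of all genes), and in 15 of them it was more positive in females. Hdac4 gave the largest value (0.79, SE 0.14, adjusted p = 5.278e-05) and Igf1 one of the lowest (-0.72, adjusted p = 3.720e-04); both were named after their values were seen. Mef2a, Mef2c and Mef2d were all among the 15, with 0.28, 0.31 and 0.31, whereas Slc2a4 had -0.19 and was not called. Of the markers of other cells, 4 of 10 for adipocytes, 5 of 8 for leukocytes and 4 of 5 for erythroid cells were called with a more negative wheel effect in females, and 4 of 8 fast fibre and 3 of 6 skeletal muscle markers with a more positive one (medians of 0.23 and 0.15); without the 10 mice with high liver markers 9 of the list were called, and with adipocyte markers as a covariate again 9. Their part in these differences was not tested.

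**Figure D4:**
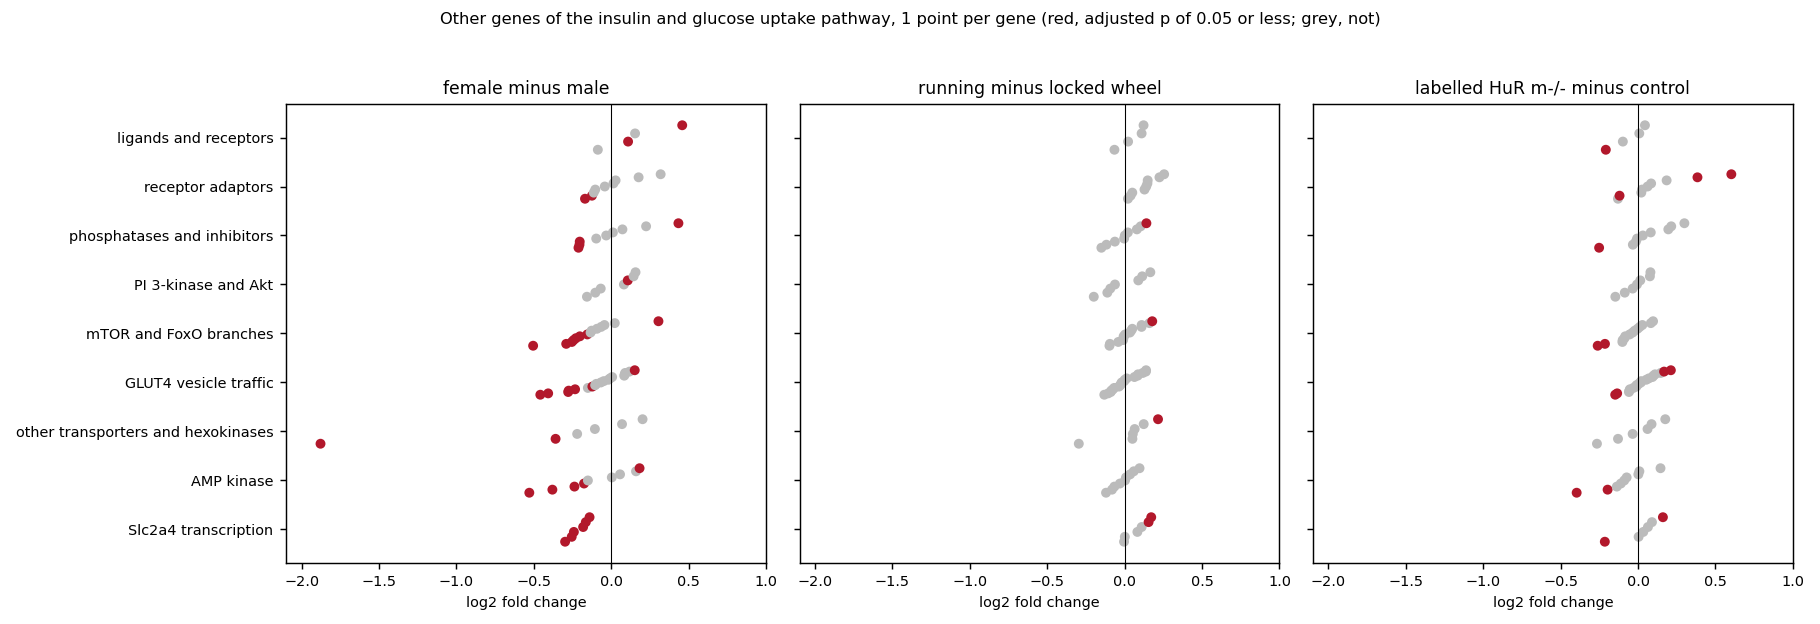
Log2 fold changes (horizontal axes, the same scale in each panel) of the 83 other pathway genes tested, grouped by role (vertical axes), in the comparisons by sex, wheel and genotype label. Each point is 1 gene and red marks an adjusted p of 0.05 or less; by sex 30 red points lie below 0 and 7 above, with Slc2a3 farthest out at -1.88, and by wheel all 5 lie above 0.

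Across the 56 mice, which share their groups' conditions, each gene was set beside 12829 others by the Pearson correlation of log2 CPM, as a description. Slc2a4 was most like Gys1, muscle glycogen synthase (r = 0.82, and 0.74 after group means were removed), Marc2 (0.78) and Nelfcd (0.77). Insr was most like Etl4 (0.77), Gatad2b (0.72) and Lpin1 (0.72), Tbc1d4 like Dmac2 (0.73), Cd46 (0.72) and Kcnma1 (0.64), and Irs2 like Pla2g16 (0.70), Bcl2 (0.68) and Lancl1 (0.68). The genes most like Grb10 were Xist (0.91), Ddx3x (0.90) and Gstm2 (0.86), of which Xist and Ddx3x are X-linked genes with higher levels in females, and the values fell to 0.33, 0.38 and 0.34 once group means were removed. Akt2 was most like Prune1 (0.65), Lamp1 (0.64) and Strn3 (0.63), Irs1 like Nr3c1, the glucocorticoid receptor (0.63), Socs2 (0.63) and Ube2b (0.61), and Pik3r1 like Ces1d (0.62), Cdo1 (0.60) and Lamp2 (0.60). Tbc1d1 (Atcayos, 0.68, Gm43672, 0.67, and Mss51, 0.66) and Slc2a1 (Npat, 0.53, Dgka, 0.50, and Adsl, 0.47) complete the set. Between the 10 genes themselves the highest value was 0.50, for Insr and Tbc1d4 (0.56 after group means were removed), and Insr with Slc2a4 gave 0.42 (0.23).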

How the data were processed

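For 56 gastrocnemius libraries, the authors deposited raw counts, whole numbers of reads per gene without any scaling. The submitters' processing notes name GRCm38 (mm10), R 4.0.3 and edgeR 3.38.4; the aligner, the counter and the use of strand are not given in the sources used here. The labels name a QuantSeq kit, which reads transcripts at their 3′ end, with 50 bp forward reads, the study's methods stranded total RNA with paired reads; with 3′ reads a count depends on few bases of a transcript, so levels were compared within genes only.

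Groups came from the labels. Counts were normalized by TMM (edgeR 4.0.16), filtered (filterByExpr, minimum count 10) and fitted with voom and limma 3.58.1 in R 4.3.3, with 8 group means in 1 fit, and p-values were adjusted by Benjamini-Hochberg over 14321 genes in each comparison and called at 0.05. The 18 comparisons share mice. CPM for display used the TMM totals, and log2 CPM for correlations a prior count of 2. No 2 mice of a group agreed within counting noise (chi-square of 3.55 to 49.8 for each degree of freedom). The wheel comparison was also run on simulated counts without differences by sex or label, and no outcome of that run is used here. Alternatives were edgeR's quasi-likelihood test, DESeq2 1.42.0, other size factors, filters and weights, marker covariates and a replicate block. Fits without each mouse and fits of fewer groups were also made. The latter used the 2 groups compared for the wheel, and all groups with the same wheel for sex and label. The removal of mice with high liver markers was chosen after seeing the data. The genes, lists, markers and tests were chosen with earlier results of these data known. Named genes were the 10, Elavl1, the 4 largest called rises and falls of the pathway list in each main comparison, and the 3 genes most like each of the 10. One result of a single gene is not reported here.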

Additional observations from a re-analysis of the deposited data

Results flagged for a closer look

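In 80 sets of 7 mice (10 genes in 8 groups), 1 mouse stood far from the rest of its group, where chance gives about 1 in 20 sets. Female control mouse 5 with a running wheel had 70.3 CPM of Pik3r1, and the other 6 mice of the group lay between 45.4 and 52.9 CPM, so that the gap was 0.701 of the group's range. The sex difference of Pik3r1 kept its call in each fit that left out 1 mouse (adjusted p from 2.111e-04 to 0.001907).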

How the results depend on the processing

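Of 21 called differences of the 10 genes, 0 changed direction under any setting, 21 kept their call with edgeR's test, DESeq2, quality weights, no filter and 10 counts in every mouse, and 20 with DESeq2 size factors or upper-quartile normalization. Males and females of a label and wheel that shared a replicate number gave r from -0.209 to 0.246 (12 pairs, 5 above 0.1). Mice with different numbers were not compared, so these values cannot tell whether the numbers pair the mice. The fit with a replicate block kept all 21 calls. By wheel, 2 genes became 1 with DESeq2 size factors, with adipocyte or liver markers as covariates, without the 10 mice with high liver markers, and in fits without 1 mouse (1 to 2, for example without female control mouse 12 with a locked wheel), each time Insr. By sex, 6 became 2 with adipocyte and 2 with slow minus fast fibre markers, and fits without 1 mouse added Tbc1d1 in 14 of 56 (adjusted p 0.02726 to 0.1003) and Slc2a4 in running mice labelled HuRm-/- in 13 (0.02332 to 0.1478). By label, 3 became 5 with quality weights, 0 with the fibre markers and 0 without the 10 mice. The wheel by sex count of 0 became 1 with quality weights and 0 to 1 without 1 mouse (female HuRm-/- runner 2, Tbc1d4), as did wheel in females labelled HuRm-/- (1, and 0 to 1). Wheel in female controls went from 1 to 0 with adipocyte or liver markers and without the 10 mice, to 2 in the fit of the groups compared, and to 0 to 1 without 1 mouse (Insr, lost without locked mouse 12, 16 or 33 or running mouse 1, 5, 9 or 26). Sex went from 3 to 1 in locked controls (adipocyte markers; Tbc1d1 lost its call there without female 12, 15, 32 or 33 or male 16, 19, 20 or 29), from 2 to 1 in running mice labelled HuRm-/- (fibre markers), from 1 to 3 in locked mice labelled HuRm-/- (quality weights, and 1 to 3 without female 34, Irs1 and Pik3r1), and in running controls to 1 to 2 without females 27 or 28 or male 10 (Slc2a4). Of the pathway list, wheel calls went from 5 to 8 with quality weights and 3 without the 10 mice, sex calls from 37 to 13 (adipocyte) and 17 (fibre), label calls from 15 to 0 (fibre), and wheel by sex calls from 18 to 9 (adipocyte) and 9 (without the 10 mice). The cause of these shifts was not tested. Refits with fewer groups used the 2 groups compared for the wheel, and all groups with the same wheel for sex and label. They kept 9 of 10 calls and lost Tbc1d1 by sex in locked controls (limma adjusted p = 0.05786). They gave no value for means of 4 differences. Depth limits Slc2a1, whose median count was 78.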
